A study of Mus musculus with 2 samples.

Results

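The genes examined here encode the nuclear subunits of the mitochondrial respiratory chain and of ATP synthase, with the factors that assemble them. They were taken by name alone, as every gene of the array whose symbol starts with Nduf, Sdh, Uqcr, Cox followed by a digit, or Atp5. That gave 99 genes and 165 probe sets out of 17097 genes with a value, and 94 of the 99 genes were above the floor. The names also bring in 20 assembly or related factors and 1 pseudogene entry, which were kept apart from the 78 subunit genes. The array was the Affymetrix HT MG-430 PM, which reads each transcript with sets of short probes, and the annotation used here named 0 probe sets for the respiratory genes that mitochondrial DNA itself encodes.

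CD4 T cells were activated beside antigen-presenting cells (APC) with or without a transgene for OX40L, the ligand of the costimulatory receptor OX40, and their transcripts were compared. Naive CD4 T cells, high for CD62L, low for CD44 and negative for Foxp3, came from 6-week-old C57/Bl6 mice with a Foxp3-eGFP reporter. Both cultures received soluble anti-CD3, an antibody that sets off the receptor for antigen, and splenocytes depleted of T cells and treated with mitomycin C at 50 ug/ml, for 48 hours. The splenocytes were from wild type B6 animals (Wt APC) or carried an OX40L transgene (OX40L-Tg APC), and living CD4 T cells were sorted afterwards. The promoter of the transgene and the number of mice in each culture are not given in the sources used here. Where a pair of intensities is given, the Wt APC array comes first and the OX40L-Tg APC array second. Each condition has 1 array, so no difference has an error or a test, and nothing measures the spread between cultures.

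The respiratory chain passes electrons from nutrients to oxygen in the inner mitochondrial membrane. Complex I (NADH dehydrogenase) and complex II (succinate dehydrogenase) feed electrons to coenzyme Q, complex III passes them to cytochrome c, and complex IV (cytochrome c oxidase) reduces oxygen. Complexes I, III and IV pump protons, and complex V (ATP synthase) uses their return to make ATP. Activated T cells enlarge their mitochondria and use both glycolysis and respiration while they divide.

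Transcripts of the respiratory chain read nearly the same with either kind of APC. Over the 94 genes above the floor, the median difference of OX40L-Tg APC minus Wt APC was 0.003 on the log2 scale, beside 0.02 over all 10541 genes above the floor. The floor was the median intensity of each array, 14.7 units on both, and a gene was kept if it reached it on either. None of the 94 genes differed by 1.5-fold or more (0 of 94), and 7.21% of all genes did. At 2-fold the count was also 0, against 2.72% of all genes. At the lowest threshold, a log2 difference of 0.32, 2 genes were higher with OX40L-Tg APC, where 10.6% of all genes were, and 1 was lower, where 9.52% of all genes were. These 3 genes were Cox6b2 and Cox18 on the higher side and Cox17 on the lower side. Of the 94 differences, 49 were above 0 and 45 below, where 54.0% of all genes were above. That split is not firm: after centring on the median of all genes 38 of the 94 were above 0, and after a lowess correction on the level 39 were. Counts of higher and lower genes within a complex share this limit.

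**Figure D1:**
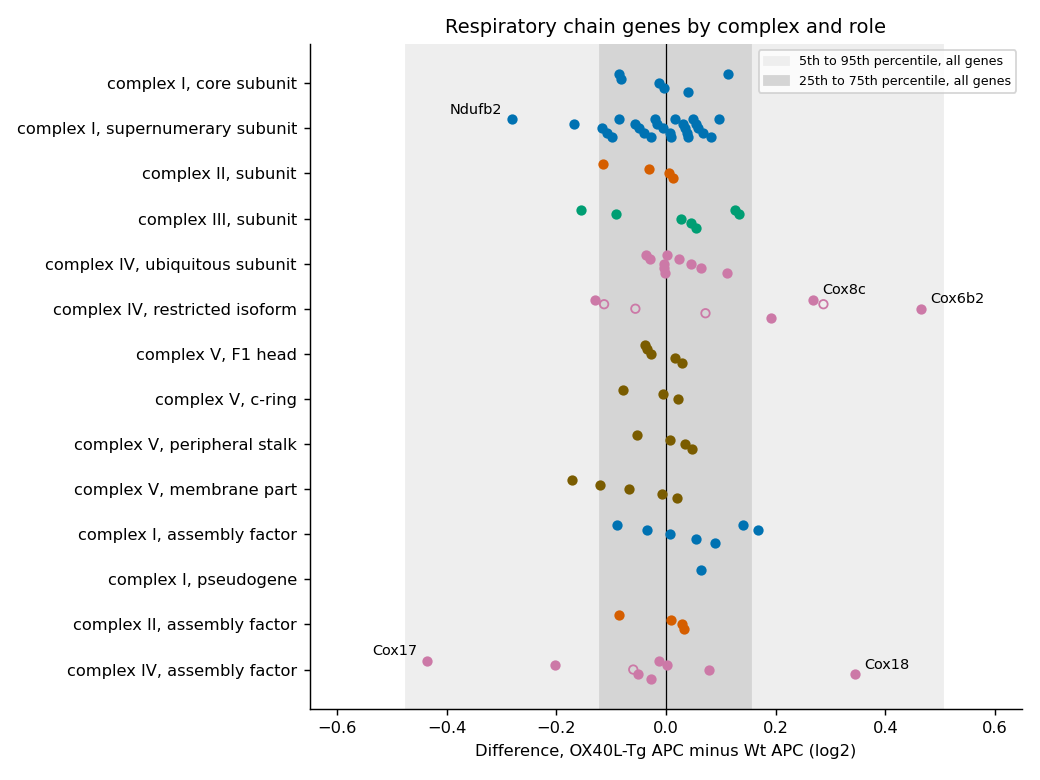
Each point is 1 gene, placed by its difference between the arrays (OX40L-Tg APC minus Wt APC, log2) and grouped by complex and role; open points are genes below the floor, and grey bands give the spread of all genes above the floor, from -0.47 to 0.50 for the outer band. Most points lie in the inner band, from -0.12 to 0.16, and Cox17, Cox18 and Cox6b2 lie farthest out among genes above the floor.

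The spread of the differences was narrow. Their SD across the 94 genes was 0.11, against 0.39 across all genes above the floor. Respiratory genes are abundant, and abundant genes differ less between arrays, so the same was set out for genes averaging at least 500 units. There the 69 subunit genes had an SD of 0.08 and a range of -0.28 to 0.13, and 0 of them reached the lowest threshold. The 2764 genes of that level had an SD of 0.28, and 11.1% of them reached it in either direction. Among the 78 members at that level, subunits or not, Cox17 was the only 1 past it. Among the 597 genes of at least 2000 units the SD was 0.15, and among the 42 members of that level it was 0.07.

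**Figure D2:**
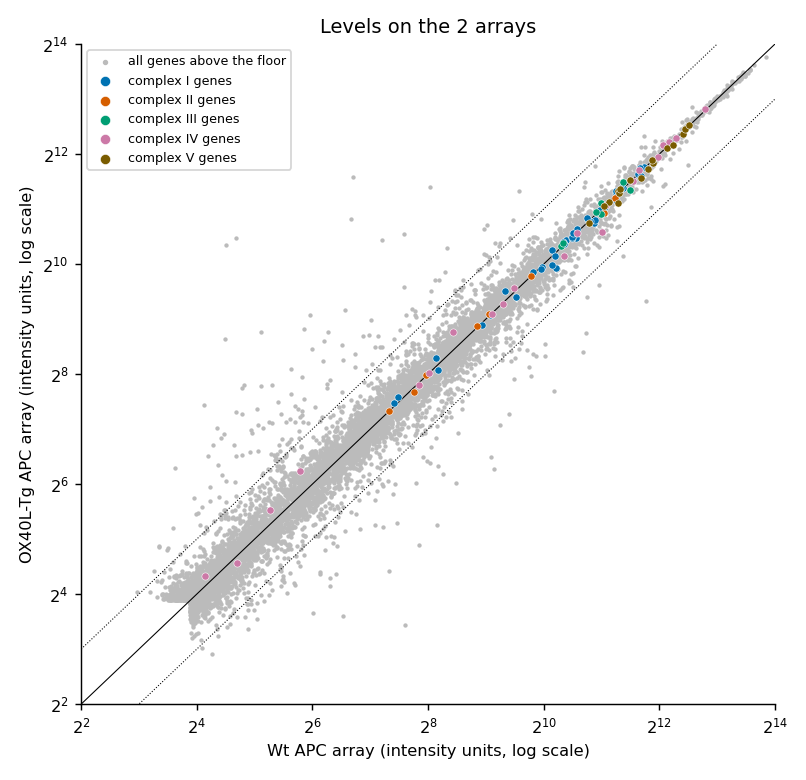
Intensity on the Wt APC array (x axis) and on the OX40L-Tg APC array (y axis), both on a log scale, for all genes above the floor in grey and for the respiratory chain genes in colour by complex; the solid line marks equal values and the dotted lines 2-fold. The coloured points follow the solid line, and 0 of 94 reach a dotted line.

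Subunit genes are known to share promoter elements bound by NRF1 and by ETS factors such as GABP, and the stretches before the start site are shown for 1 gene per complex to let these elements be seen. Each is the member above the floor with the most kinds of searched motif in the bases before the start that no annotated gene covers. Members with only a short stretch of such bases were passed over, among them Sdha, whose neighbour on the opposite strand starts 77 bases away. Ties went to more sites and then to the alphabet. Sequences are from RefSeq on GRCm38.p6, read 5′ to 3′ on the gene's strand and ending at the base before the start site, and capitals mark the motif letters. Ndufb4 (complex I) lies at chr16:37654369-37654618, minus strand. Sdhaf4 (complex II assembly) lies at chr1:24005641-24005890, minus strand. Uqcr11 (complex III) lies at chr10:80406822-80407071, minus strand. Cox6a1 (complex IV) lies at chr5:115348959-115349208, minus strand. Atp5h (complex V) lies at chr11:115419920-115420093, minus strand.
Ndufb4: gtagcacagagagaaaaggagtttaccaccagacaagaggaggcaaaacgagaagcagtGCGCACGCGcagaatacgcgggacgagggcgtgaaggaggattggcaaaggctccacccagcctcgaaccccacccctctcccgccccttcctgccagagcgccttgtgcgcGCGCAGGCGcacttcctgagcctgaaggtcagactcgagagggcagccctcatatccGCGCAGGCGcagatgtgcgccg
Sdhaf4: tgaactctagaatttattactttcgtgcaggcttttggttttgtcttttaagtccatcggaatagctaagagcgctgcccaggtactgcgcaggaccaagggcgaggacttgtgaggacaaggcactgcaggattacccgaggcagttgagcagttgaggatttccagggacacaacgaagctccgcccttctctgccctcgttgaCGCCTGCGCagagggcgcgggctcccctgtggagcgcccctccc
Uqcr11: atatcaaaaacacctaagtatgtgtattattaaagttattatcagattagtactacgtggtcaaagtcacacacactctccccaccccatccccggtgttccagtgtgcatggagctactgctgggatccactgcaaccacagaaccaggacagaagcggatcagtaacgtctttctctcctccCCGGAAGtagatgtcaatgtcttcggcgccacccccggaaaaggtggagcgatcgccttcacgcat
Cox6a1: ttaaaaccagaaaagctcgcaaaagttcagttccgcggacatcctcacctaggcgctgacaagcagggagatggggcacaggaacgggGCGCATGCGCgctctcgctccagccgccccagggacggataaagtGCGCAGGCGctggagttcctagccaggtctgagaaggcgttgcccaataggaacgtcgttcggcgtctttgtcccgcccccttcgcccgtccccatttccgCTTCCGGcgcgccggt
Atp5h: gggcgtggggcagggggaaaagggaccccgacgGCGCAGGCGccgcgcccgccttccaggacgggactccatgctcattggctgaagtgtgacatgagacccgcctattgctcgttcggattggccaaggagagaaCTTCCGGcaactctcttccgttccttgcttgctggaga
Ndufb4 held 3 NRF1 motifs in this stretch and Cox6a1 held 3, a pair of them overlapping, with an ETS motif near its start. Atp5h held 1 of each kind, Sdhaf4 held 1 NRF1 motif and Uqcr11 held 1 ETS motif. The differences of these 5 genes between the arrays were -0.04 for Ndufb4, -0.09 for Sdhaf4, 0.03 for Uqcr11, 0.02 for Cox6a1 and 0.01 for Atp5h.

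The search covered windows from 250 bases before to 50 after the start, on both strands, and 80 of the 99 members had a window in the table. A gene with several windows was counted as holding a motif if any of them held it. The NRF1 motif, searched as GCGCANGCG, was in 23 of 80 members (28.8%), in 15.3% of the 8580 genes above the floor with a window and in 7.03% of all 27025 genes with one. The ETS motif, CCGGAAG, was in 24 members (30.0%), against 21.0% and 9.93%. The YY1 motif, AAGATGGCG, was in 9 members, or 11.3%, against 3.78% and 1.64%, and 8 of its 9 sites lay after the start site. The ERR motif, TCAAGGTCA, was in 2 members (2.5%), Atp5g3 and Sdhd, against 0.361% and 0.466%. NRF1 and ETS motifs stood together in 7 members, and the share of all genes holding both was not computed. The motifs were spread unevenly over the complexes, with NRF1 in 7 of 15 complex V genes and in 1 of 19 complex IV genes, where ETS was in 7. For CG pairs, each gene took its window with the most. The median over genes was 20 in members and 22 in genes above the floor, but 8 in all genes. Between the arrays, members with and without the NRF1 motif had median differences of 0.007 over 23 genes and -0.002 over 54 genes. A match is a run of letters and does not show that a factor binds there.

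**Figure D3:**
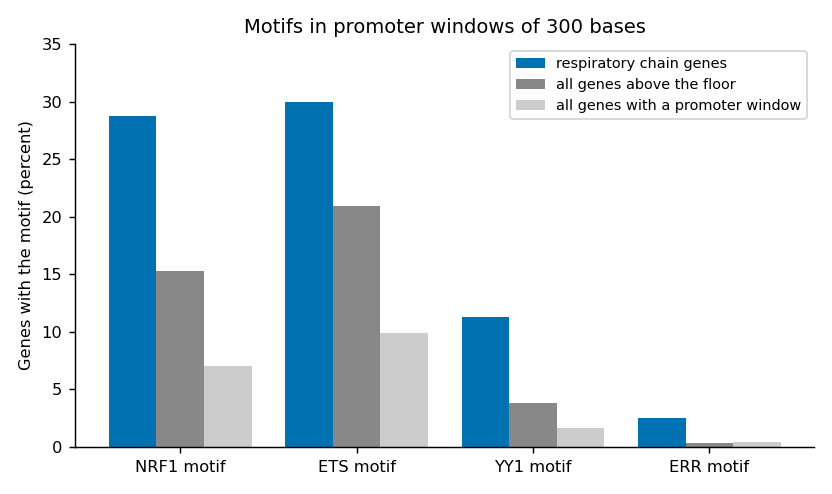
Share of genes (percent, y axis) with each motif in any promoter window of 300 bases, for the 80 respiratory chain genes with a window, the 8580 genes above the floor and all 27025 genes with a window. The respiratory chain bar is the highest for each motif, and is 28.8% for NRF1 and 30.0% for ETS.

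Complex I was represented by 32 subunit genes, all above the floor, with a median difference of -0.004, 15 higher and 17 lower. Of the core subunits, which carry the redox centres, Ndufv1 holds the site where NADH is oxidised. It read 1130 and 1221 units, a difference of 0.11 and the highest of the 6 core genes, with 0.02 in its other probe set. Ndufs1, the largest core subunit, read 998 and 989 units. Ndufs8, an iron-sulphur subunit, read 2439 and 2297 units, the lowest difference of the core at -0.09.

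The 26 supernumerary subunits, which surround the core and stabilise it, ranged from -0.28 to 0.10, with 13 higher and 13 lower. Ndufb2 stood at the lower end with 1189 and 978.5 units, and its other probe set differed by -0.17. Ndufa5 followed with 1133 and 1009 units, a difference of -0.17, with -0.06 in its other probe set. Ndufa7 read 1868 and 1723 units, and all of its 5 probe sets were lower, from -0.20 to -0.08. Ndufa2 stood at the upper end with 1717 and 1835 units. Ndufab1, the mitochondrial acyl carrier protein that also serves fatty acid and lipoate synthesis, read 3250 and 3439 units, with 3 probe sets between 0.08 and 0.21. Ndufs4 had the widest probe sets of any member, from -0.42 to 0.04, and the outer value came from a probe set of 22.5 and 16.9 units, no higher than marker genes of other tissues reached.

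The 7 complex I assembly factors ranged from -0.09 to 0.17. Ndufaf4, an early assembly factor, was highest at 646 and 725 units, and its probe sets differed by 0.15 and 0.17. Ndufaf2 read 283 and 312 units, a difference of 0.14. Ndufaf6 was lowest, at 288 and 271 units. Probe sets that target Ndufs5 may be among those the annotation gives to its pseudogene entry Ndufs5-ps, since near-identical copies cannot be told apart by short probes. That entry read 1522 and 1591 units.

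Complex II, the only respiratory complex with no subunit encoded in mitochondrial DNA and also an enzyme of the citric acid cycle, had 4 subunit genes within a range of -0.11 to 0.01. Sdha, the flavoprotein that oxidises succinate, read 2118 and 1956 units, and its 3 probe sets above the floor ran from -0.14 to -0.07. Sdhb, the iron-sulphur subunit, read 2411 and 2359 units. The membrane anchors Sdhc and Sdhd read 879 and 882 units and 250.4 and 252.7 units. Its 4 assembly factors lay between -0.09 for Sdhaf4, at 217 and 204 units, and 0.03 for Sdhaf2, whose other probe set differed by -0.15.

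Complex III had 7 subunit genes with a median of 0.04, 5 higher and 2 lower. Uqcrfs1, the Rieske iron-sulphur protein that hands electrons to cytochrome c1, was lowest at 2888 and 2595 units, a difference of -0.15 on its only probe set. Uqcrq, a small subunit beside cytochrome b, was highest at 2024 and 2219 units, and its 3 probe sets above the floor were all higher, from 0.13 to 0.22, though all but the main one read below the guide level used for the isoforms of complex IV. The core proteins Uqcrc1 and Uqcrc2 read 1916 and 1977 units and 2645 and 2888 units. The probe sets of Uqcrc2 disagreed in sign, with 0.13 and -0.04, so its difference is no larger than the scatter of its probes.

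Complex IV had 10 ubiquitous subunit genes in a range of only -0.04 to 0.11, with a median of -9.29e-05. Cox4i1, the regulatory subunit that binds ATP, read 4593 and 4597 units. Cox5a read 4603 and 4750 units and Cox5b 4041 and 3940 units. Cox6b1 was highest at 4254 and 4597 units, a difference of 0.11, with 0.02 in its other probe set. Ndufa4, first assigned to complex I and now known as a subunit of complex IV, read 2971 and 2913 units.

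Complex IV also has isoforms that replace the ubiquitous subunits in muscle, lung or testis. Ndufa4l2, a relative of Ndufa4 that is not such a tissue form, was counted with them, and 4 of the 8 were above the floor. As a guide to the level of absent transcripts, 11 marker genes of fat, muscle and testis reached at most 22.7 and 20.6 units. Cox6b2, the testis counterpart of Cox6b1, read 54.9 and 75.7 units, a difference of 0.47 and the highest of all members. Cox8c, the testis form of subunit 8, read 38.3 and 46.1 units, a difference of 0.27. Each rests on 1 probe set. Cox7a1, the heart and muscle form of subunit 7a, read 25.9 and 23.6 units. The ubiquitous Cox7a2 differed by -0.001, at 4994 and 4989 units. Cox6a2, Cox8b, Cox4i2, Cox7b2 and Ndufa4l2 were below the guide on both arrays, so their differences carry no reading.

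The assembly factors of complex IV held 2 of the 3 members past the lowest threshold. Cox17, the copper chaperone that supplies the metal centres of cytochrome c oxidase, read 2064 and 1525 units. That is a difference of -0.44, or 1.35-fold lower, and its other probe set differed by -0.31 at 21.98 and 17.72 units, below the guide level given above. Because the probe set of Cox17 that reads highest is marked as shared between transcripts, other transcripts may add to its signal. Cox18, which inserts the copper-bearing tail of subunit 2 into the membrane, read 344 and 437 units, 1.27-fold higher on its only probe set. The other 6 above the floor ranged from -0.20 for Cox7a2l, which joins complexes into supercomplexes, to 0.08 for Cox19, which works in the same copper route. Cox7a2l read 1300 and 1130 units, and its other probe sets differed by -0.09 and -0.08. Cox10 and Cox15, the enzymes that make heme A, read 230 and 222 units and 258 and 259 units. Cox11 was below the floor.

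Complex V had 17 subunit genes with a median of -0.007 and a range of -0.17 to 0.05. In the F1 head, where ATP is made, the catalytic beta subunit Atp5b read 5546 and 5609 units and the alpha subunit Atp5a1 5429 and 5301 units. All 5 F1 genes lay between -0.04 and 0.03. Atp5g1, Atp5g2 and Atp5g3 encode the same mature c subunit of the rotor ring behind different import signals, and read 2519 and 2510 units, 3573 and 3385 units, and 5826 and 5912 units. Their differences of -0.01, -0.08 and 0.02 were within the range of the other complex V genes. The 4 peripheral stalk genes lay between -0.05 for Atp5o and 0.05 for Atp5pb. In the membrane part, 4 of 5 were lower. Atp5mpl, a small proteolipid, read 2503 and 2221 units, a difference of -0.17, and Atp5k 3301 and 3038 units, a difference of -0.12 with -0.04 in its other probe set. Atp5md, a subunit that holds ATP synthase dimers, read 2101 and 2130 units.

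The scatter of probe sets within a gene is the only view of technical scatter here. It cannot show error that the probe sets of an array have in common. In 43 members with several probe sets above the floor, the differences scattered around the gene's mean with an SD of 0.08, and over 4195 genes of the array with an SD of 0.18. All probe sets had the same sign in 30 of the 43. None of the 43 had probe sets of opposite sign that lay 0.5 or more apart (0 of 43), and the widest was Ndufs4 at 0.45. Among probe sets of at least 500 units the within-gene SD was 0.05 in members and 0.06 over 661 genes of the array. The SD between subunit genes of that level was 0.08.

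**Figure D4:**
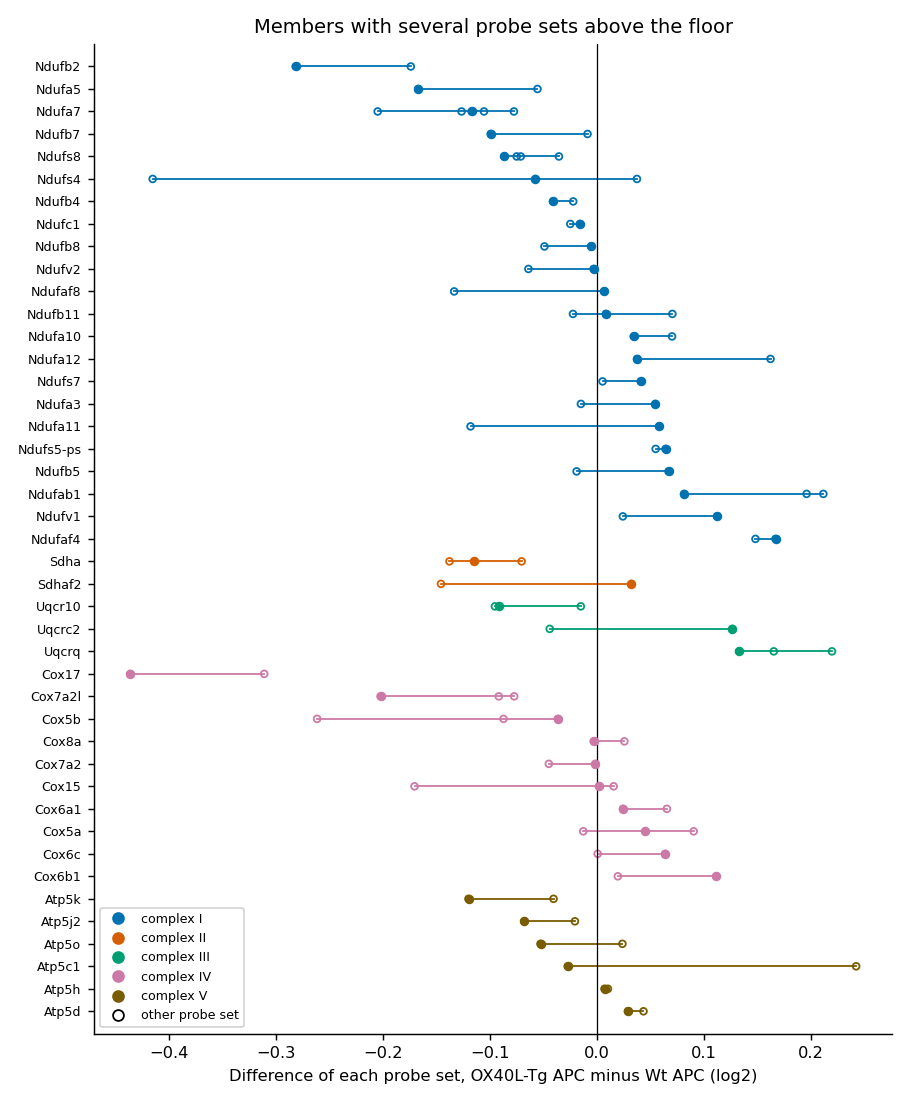
Difference of each probe set above the floor (OX40L-Tg APC minus Wt APC, log2, x axis) for the 43 members with several; filled points are the probe sets used as the gene's value and open points the others, coloured by complex. Cox17 and Ndufb2 lie to the left with every probe set, whereas the wide line of Ndufs4 comes from 1 dim probe set at -0.42.

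Other mitochondrial genes were set out in 5 lists, whose counts stand against the 10.6% of all genes past the lowest threshold on the higher side and the 9.52% on the lower. Of 32 further respiratory chain genes above the floor, whose names fall outside the prefixes, 2 were past the lowest threshold on the higher side and 0 lower, with a median of 0.03. The electron carrier cytochrome c (Cycs) read 3640 and 3880 units, and its partner in complex III, Cyc1, 2570 and 2583 units. Sco1, which receives copper from Cox17, was the highest at 128 and 191 units, a difference of 0.58 on its only probe set. Tmem177 was the lowest at -0.25, with 0.16 in its other probe set. Ttc19, a complex III factor, read 42.4 and 60.4 units.

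Of 18 genes of mitochondrial transcription and biogenesis, 1 was past the lowest threshold on the higher side and 2 lower, with a median of 0.04 and an SD of 0.24. Ppargc1b, a coactivator of mitochondrial genes, was the lowest at 137 and 96.2 units, a difference of -0.51. Polg2, an accessory subunit of the mitochondrial DNA polymerase, read 137 and 103 units. Top1mt, the mitochondrial topoisomerase, was the highest at 147 and 195 units. Nrf1 and Yy1, whose motifs were searched above, differed by -0.003 and 0.01, with probe sets of Nrf1 from -0.25 to 0.30. Gabpa, the DNA-binding part of GABP, differed by -0.14, with 0.06 in its other probe set. Gabpb1, in the same list, differed by 0.24, with 0.13 in its other probe set. Tfam, which packages mitochondrial DNA, read 1082 and 1022 units.

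The 16 citric acid cycle genes had a median of 0.03, with 1 past the lowest threshold. Suclg1, a subunit of succinate-CoA ligase, read 988 and 1344 units, a difference of 0.44, and Pdhx, a part of pyruvate dehydrogenase, was the lowest at -0.22. Enzymes that bring electrons to coenzyme Q by other routes, with those that make it, were higher in 10 of 12, where 54.0% of all genes were, with a median of 0.12 and an SD of 0.21. Of the 12, 2 were past the lowest threshold on the higher side, a count too small to set apart from the 10.6% of all genes. Prodh, proline dehydrogenase, read 23.5 and 36.0 units, barely above the guide on the Wt APC array. Dhodh, which links pyrimidine synthesis to the chain, read 215 and 271 units, with probe set differences of 0.21 and 0.33. Gpd2, the mitochondrial glycerol phosphate dehydrogenase, read 464 and 579 units, just under the threshold, with 3 probe sets between 0.32 and 0.83. Coq9 was the lowest at -0.15. Of 19 genes of mitochondrial dynamics and import, 0 reached the threshold, from -0.22 for Chchd3 to 0.19 for the chaperone Hspa9.

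**Figure D5:**
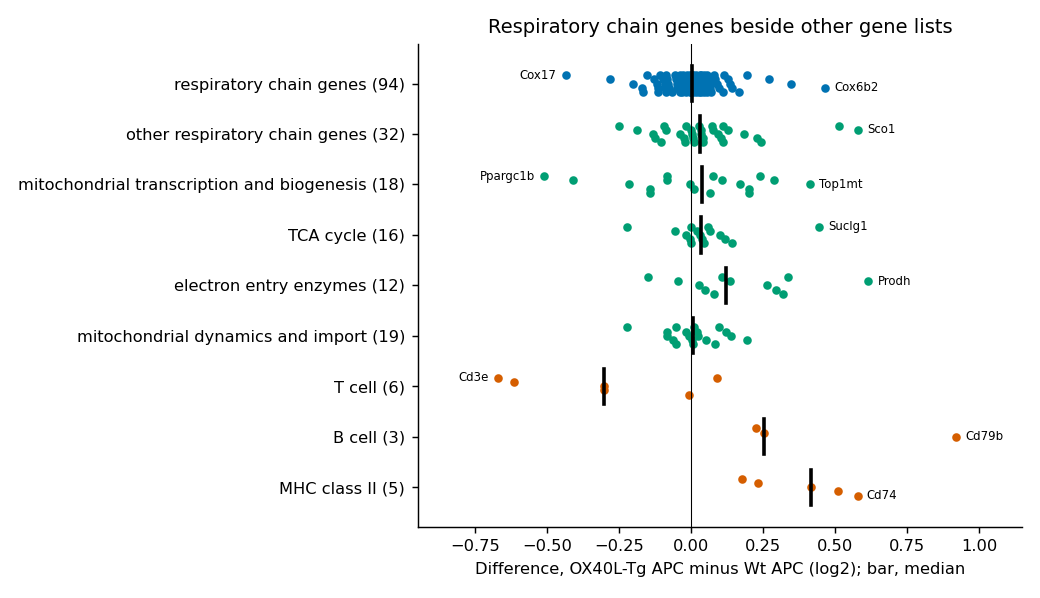
Each point is 1 gene above the floor, placed by its difference (OX40L-Tg APC minus Wt APC, log2, x axis), and black bars are the medians of the lists, whose sizes are in brackets. The respiratory chain genes cluster about a median of 0.003, while the T cell markers have a median of -0.30 and the MHC class II genes of 0.41.

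Marker genes of the labelled cell type and of others were read beside the results. The T cell markers summed to 15202 and 13001 units, and 5 of 6 were lower, where 54.0% of all genes were higher. Of the 6, 2 were past the lowest threshold on the lower side, Cd3e and Cd3g, where 9.52% of all genes were. Cd3d and Cd4, both at -0.30, did not reach it. Cd3e read 1452 and 912 units, Cd3g 2533 and 1651 units, Cd3d 4161 and 3375 units and Cd4 1410 and 1143 units. Cd5 differed by -0.01, and Cd2 was higher at 4359 and 4639 units. The erythroid gene Hba-a1, for alpha globin, read 1161 and 207 units, a difference of -2.49 and the largest of any marker gene listed. MHC class II genes, which mark APC, were higher in 5 of 5, where 54.0% of all genes were. Their sums were 2653 and 3539 units, and 3 of the 5 were past the lowest threshold, where 10.6% of all genes were. The B cell sum was 536 and 752 units, with Pax5 below the floor. Of 3 dendritic cell markers above the floor, 2 were higher and 1 lower. They ran from -0.09 for Flt3 to 0.52 for Zbtb46, which had 0.001 in its other probe set. Of 5 macrophage markers, 4 were below the guide on both arrays. The extraction text in the labels speaks of adipose tissue, and the 3 measured adipocyte markers were below the floor. Whether these shifts of markers bear on Cox17, Cox18, Cox6b2 or Sco1 was not tested. In RNA from sorted bulk cells, fewer cells of a type and less RNA per cell cannot be told apart. Control probe sets gave ratios of the 3′ to the 5′ part of 1.03 and 1.06 for Gapdh and 1.24 and 1.26 for Actb on the Wt APC and OX40L-Tg APC arrays.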

How the data were processed

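The authors deposited a table of probe set intensities on a linear scale for 2 arrays, made with RMA per the submitters' processing notes, from 4.69 to 14686 units. RMA makes the distributions of the arrays alike, so a change in all transcripts leaves no trace, and it understates differences of dim probe sets. Its version, and the arrays normalized together, are not given in the sources used here.

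Of 45141 probe sets, 28898 had 1 symbol in the platform annotation. Probe sets with several symbols (551, including 1 that names a Cox gene) and 15692 unlisted ones were left out. A gene took its probe set with the highest mean of log2 values, and each difference is the log2 intensity on the OX40L-Tg APC array less that on the Wt APC array. Thresholds were a log2 difference of 0.32 and folds of 1.5 and 2. With 1 array per group no test was run. The number of arrays limits the precision. RefSeq entries were found for 28689 probe sets and changed 0 symbols.

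Members and lists were chosen with earlier results of these data known. Named genes were those past 1.25-fold, the highest and lowest of each role, core subunits, isoforms, and the extremes of other lists; further members and list genes were named after their values were seen. Isoform proteins were not compared here. Python 3.11.15, numpy 2.4.6, pandas 2.3.3, statsmodels 0.14.6 and matplotlib 3.10.9 were used, and the steps were tested on simulated data.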

Additional observations from a re-analysis of the deposited data

How the results depend on the processing

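No paired analysis was possible because each condition has 1 array, and for the same reason no replicate could be left out. Under 8 alternatives (median over probe sets, floor at the 75th percentile, no floor, lowess correction with span 0.3, pseudocount of 16, no shared probe sets, centring on all genes, and a floor of 500 units chosen after seeing the data) all 56 medians of the members and their groups stayed within the within-gene SD of 0.08 of the value reported, from -0.07 to 0.04. The count of members past a log2 difference of 0.32 on the higher side was 1 with the floor at the 75th percentile, which leaves out Cox6b2, 1 after the lowess correction, under which Cox18 was at 0.32, just below it, and 0 with the floor of 500 units. The count on the lower side was 0 without shared probe sets, where Cox17 rests on its dim probe set at -0.31. Cox17 ranged from -0.45 to -0.31, Cox18 from 0.32 to 0.35 and Cox6b2 from 0.37 to 0.47. Of 326 values of 44 named genes, 9 moved by more than that SD. The sign turned in 11 values of 7 genes, none of them past the threshold: their reported differences were at most 0.05 in size and the turned ones at most 0.06, as for Sdhaf2 at -0.06 with the median over probe sets and Cox5a at -0.01 without shared probe sets. Probe sets near the guide level limit what can be read of the restricted isoforms.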

Other observations

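Many respiratory chain genes share a start region with a gene on the opposite strand. Of the 80 members with a promoter window, 24 (30.0%) had such a start within 1000 bases upstream, against 19.9% of the 8580 genes above the floor. The 20 partners above the floor that are no members had a median difference of -0.01 and an SD of 0.22, with 10 higher and 10 lower. Of these partners, 3 were lower by a log2 difference of 0.32 or more, where 9.52% of all genes were. At that threshold 0 were higher, where 10.6% of all genes were. Of the 3, Mrpl47 and Stxbp4 are dim, and 2810001G20Rik, beside Cox10, read 61.2 and 43.0 units. Sdhd shares its start region with Timm8b, a mitochondrial import factor, 52 bases away, and Timm8b read 920.3 and 856 units on the Wt APC and OX40L-Tg APC arrays. Atp5j stands 148 bases from Gabpa, which encodes the GABP subunit that binds ETS motifs. Gabpa read 475 and 430.3 units, with probe sets that disagreed in sign at -0.14 and 0.06, while Atp5j read 2890.1 and 2959 units. Ndufa7 stands 10 bases from the ribosomal protein gene Rps28, which read 8235 and 8358 units. The member and its partner lay apart for Ndufb5, at 0.07, and Mrpl47, a mitochondrial ribosomal protein gene, at -0.43, but Mrpl47 read only 26.3 and 19.6 units. Stxbp4, beside Cox11, read 28.0 and 21.3 units.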
